A study of Homo sapiens with 8 samples.

Results

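Translation initiation factors were examined in MOLM-13 cells after knockdown (KD) of the splicing factor PTBP1. They were taken as the protein coding genes of GENCODE version 44 whose symbol begins with EIF followed by a digit from 1 to 6, which gave 56 genes of the 62639 with a transcript in the table. These genes carry 735 annotated transcripts, of which 336 had at least 1 count. The MOLM-13 line was derived from human acute myeloid leukemia. The shRNA of each group came from a lentivirus and was switched on by doxycycline (dox), as was a truncated LNGFR surface marker. The fluorescent protein mCherry marked transduced cells with or without dox. The 4 shPTBP1 replicates carried the shRNA against PTBP1, and the 4 shSCR replicates a scrambled shRNA. Both groups received dox for 9 days and are labelled as biological replicates. With 1 shRNA in each group, the effect of losing PTBP1 cannot be told apart from other differences between the 2 cell populations. The p values cover the spread between these libraries.

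Initiation begins when the small ribosomal subunit, with the factors eIF1, eIF1A, eIF3 and eIF5, takes up the ternary complex of eIF2, GTP and initiator tRNA. The eIF4F complex recruits it to the mRNA: eIF4E binds the cap, eIF4G is the scaffold, and eIF4A is an RNA helicase that is assisted by eIF4B and eIF4H. EIF4A1 and EIF4A2 encode close paralogs of the helicase, while EIF4A3 encodes a relative that belongs to the exon junction complex on spliced mRNA. Leukemia cells are known for a high demand for protein synthesis.

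The EIF4A2 gene lies on chr3:186783205-186789897 of hg38, on the plus strand. Its counts lay mostly on 4 transcripts, which differ by 2 alternative exons that carry the isoform results and by a pair of neighbouring splice sites. The first exon below, 107 bases long, lies inside the last intron of the canonical coding transcript EIF4A2-201 and is the exon before the last in EIF4A2-202. The second, 140 bases long, is the coding exon 4 of EIF4A2-201 and is skipped in EIF4A2-203. Both are shown 5′ to 3′ with the exon in capitals, after 100 bases of the intron before it and ahead of 50 bases of the intron after it.
EIF4A2 107-base exon, chr3:186788210-186788466: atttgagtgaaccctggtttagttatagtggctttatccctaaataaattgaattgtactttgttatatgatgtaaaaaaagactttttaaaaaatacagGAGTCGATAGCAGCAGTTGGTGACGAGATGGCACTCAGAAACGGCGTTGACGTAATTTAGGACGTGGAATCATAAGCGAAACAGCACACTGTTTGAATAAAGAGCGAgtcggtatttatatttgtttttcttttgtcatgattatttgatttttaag
EIF4A2 140-base exon, chr3:186784862-186785151: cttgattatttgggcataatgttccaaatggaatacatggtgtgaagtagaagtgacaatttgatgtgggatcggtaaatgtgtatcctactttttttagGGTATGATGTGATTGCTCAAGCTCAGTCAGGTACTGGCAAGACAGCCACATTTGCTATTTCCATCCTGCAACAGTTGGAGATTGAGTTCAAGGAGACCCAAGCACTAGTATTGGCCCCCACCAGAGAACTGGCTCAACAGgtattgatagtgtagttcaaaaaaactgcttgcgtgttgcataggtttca

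GENCODE annotates both EIF4A2-202 and EIF4A2-203 as targets of nonsense-mediated decay (NMD), the pathway that degrades mRNA with a stop codon ahead of a later exon junction. The ends of their reading frames are shown next as spliced RNA would read them, in DNA letters with the stop codon in capitals.
EIF4A2-202: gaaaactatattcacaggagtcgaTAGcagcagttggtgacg
EIF4A2-203: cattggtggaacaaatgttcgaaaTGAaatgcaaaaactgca
In EIF4A2-202 the frame ran 7 bases into the 107-base exon and ended after 362 codons, 97 bases before the last junction. In EIF4A2-203 it ended in exon 4 after 96 codons, 648 bases before the last junction. EIF4A2-201 has 407 codons and its stop codon lies in the last exon. EIF4A2-205 is a second coding transcript that keeps 3 more bases at the start of exon 2, shown in capitals, and has 408 codons.
EIF4A2 paired splice sites, chr3:186784409-186784449: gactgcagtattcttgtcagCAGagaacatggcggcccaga

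PTBP1 binds pyrimidine-rich RNA, and the 100 bases before each alternative exon were therefore read for their letters on the sense strand. Pyrimidines made up 48.0% of the window before the 107-base exon and 47.0% of that before the 140-base exon, below the median of 55.0% over the 67518 such windows before internal exons of the genes tested. The motif TCTT occurred in neither window, nor did CTCTCT. Of all the windows, 65.2% held TCTT and 7.57% held CTCTCT. On the sense strand, the letters AAGA (TCTT when read on the other strand) occurred 1 time before the 107-base exon and were not found before the 140-base exon. In the 50 bases after the 107-base exon TCTT occurred 1 time, and 28.4% of such windows hold at least 1 copy. Pyrimidines made up 66.0%, against a median of 50% and a share at least as high in 7.03% of windows. After the 140-base exon there was no TCTT, and pyrimidines made up 48.0%.

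The libraries held between 1528449 and 1613342 counts. PTBP1 itself had 10 to 23 counts per library after shPTBP1 and 64 to 90 after shSCR. Its log2 fold change was -2.26 ± 0.221 (SE, edgeR quasi-likelihood test, adjusted p = 7.18e-05). Of 10 myeloid markers 9 had a count in each of the 8 libraries, and their summed level was 840 to 909 CPM (counts per 1000000, normalized by TMM) after shPTBP1 and 817 to 874 after shSCR. The 4 T cell markers were at 0 throughout, which allows up to 3 counts per library. Summed levels were at most 5.34 CPM for 4 B cell markers (MS4A1 at 0), 8.60 for 4 epithelial markers and 21.7 for 4 fibroblast markers, with overlapping groups for each list. The part of such cells in the results was not tested.

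Of the 56 genes, 47 passed the filter on low counts and were tested, and 9 did not: EIF2AK3, EIF2AK4, EIF2S3B, EIF3C, EIF3F, EIF4E1B, EIF4E3, EIF4G3 and EIF5AL1. EIF4E1B and EIF4E3 had no count in any library, where up to 3 counts per library cannot be told from 0. PTBP1 KD was followed by a rise of 5 initiation factor genes at an adjusted p under 0.05: EIF1AX, EIF4B, EIF2S3, EIF4G2 and EIF3E. Over all 7597 genes tested 2.36% were called higher. In bulk RNA such as this, more cells of one kind and more RNA per cell cannot be told apart. No member was called lower by edgeR or by DESeq2, against 3.19% of all genes. With either tool 4 members were lower at an unadjusted p under 0.05. Counting both directions, 9 of the 47 members and 1459 of the 7597 genes had such a p with edgeR. Among genes with a mean of at least 50 counts, 35 members were tested and 5 were higher, against 4.72% of all such genes, and 1 (EIF4A2) was lower, against 6.38%. The members moved in both directions, with 23 positive and 24 negative log2 fold changes from -0.53 to 0.62 and a median of -0.021. The median over all genes tested was -0.00014, with 50% positive. In 8 of the 47 genes (17%) the groups did not overlap, as in 12.7% of all genes tested. Summed over the 56 genes, the level was 13360 to 13779 CPM after shPTBP1 and 12854 to 12954 CPM after shSCR, without overlap. This separation rests on the scaling: with CPM over the library totals, without TMM, the groups overlapped, at 13156 to 13394 and 12704 to 13228 CPM. A gene that was not called here may still have changed, also by more than the smaller of the called changes. EIF2B3, for 1, was not called at a log2 fold change of -0.53 ± 0.174 (SE).

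**Figure D1:**
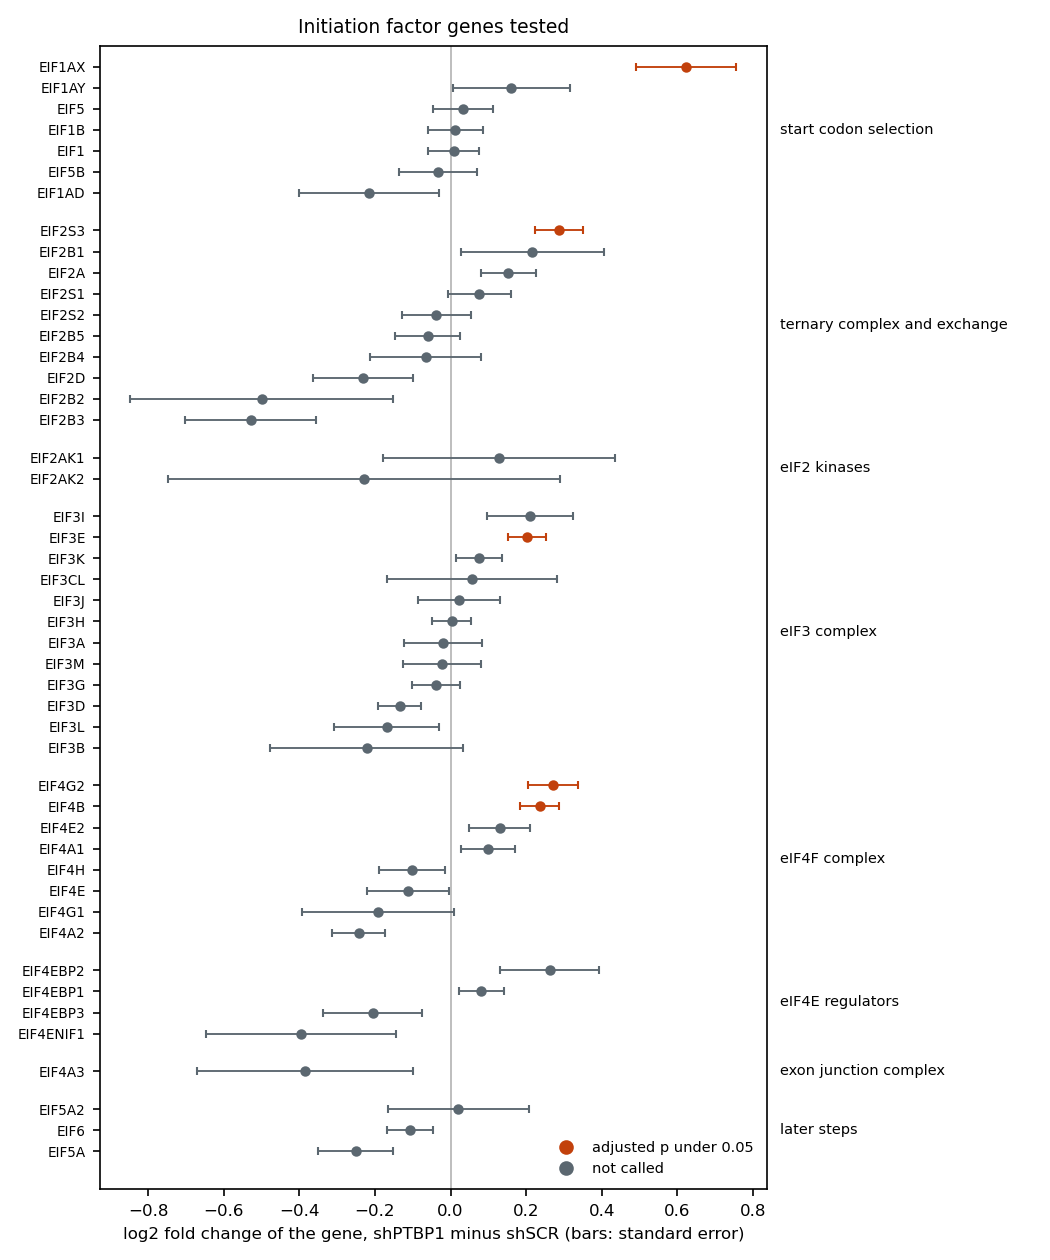
Log2 fold change of each of the 47 initiation factor genes tested (points, shPTBP1 minus shSCR, bars: standard error, 4 libraries per group), grouped by role. The 5 called genes, in orange, lie between 0.20 and 0.62, and the others spread on both sides of 0.

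The start codon group, which scans for and recognizes the AUG, had 1 of its 7 genes called. EIF1AX, the X-linked gene of eIF1A (chrX:20124525-20141838), rose most of the 47 genes. Its level after shSCR was 149, 81.5, 116 and 128 CPM in replicates 1 to 4, and after shPTBP1 182, 184, 182 and 185 CPM. The shPTBP1 libraries were close to each other and all above the shSCR libraries, which differed widely among themselves. The log2 fold change was 0.62 ± 0.132 (SE, n = 4 and 4, edgeR adjusted p = 0.0164). It lost the call when shPTBP1 replicate 2 (0.0511) or replicate 3 (0.0534, both adjusted p) was left out. The Y-linked paralog EIF1AY was tested and not called. Reads that fit both genes of this pair can be dropped by the authors' mapping filter or placed on the wrong gene, which makes both values uncertain. EIF1, EIF1B, EIF1AD, EIF5 (the GTPase activator of eIF2) and EIF5B (which joins the ribosomal subunits) had log2 fold changes from -0.22 to 0.033 and adjusted p values of at least 0.598.

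Of 11 genes for the eIF2 ternary complex, its exchange factor eIF2B and alternative tRNA carriers, 10 were tested and 1 was called. EIF2S3, which encodes the GTP-binding gamma subunit of eIF2 (chrX:24054946-24078810), stood at 489, 538, 507 and 502 CPM after shSCR and at 575, 640, 600 and 670 CPM after shPTBP1. The groups did not overlap, and the rise was 0.29 ± 0.064 on the log2 scale (SE, n = 4 and 4, edgeR adjusted p = 0.0200). It lost the call (adjusted p from 0.0562 to 0.0695) without shPTBP1 replicate 2 or 4 or shSCR replicate 1 or 4. Its autosomal copy EIF2S3B had at most 1 count, and reads that fit both genes could be dropped by that filter or placed on the wrong gene. The alpha and beta subunits EIF2S1 (0.076 ± 0.083) and EIF2S2 (-0.038 ± 0.091) were not called.

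EIF2B3, the gamma subunit of the exchange factor that reloads eIF2 with GTP (chr1:44850522-44986722), had 26, 40, 39 and 30 counts after shPTBP1 and 53, 53, 44 and 48 counts after shSCR. The groups did not overlap, and the log2 fold change of -0.53 ± 0.174 was the lowest among the members, but it did not pass the correction (edgeR adjusted p = 0.102). The other eIF2B subunits ranged from -0.50 ± 0.348 for EIF2B2 to 0.22 ± 0.190 for EIF2B1, with none called. The 4 kinases that phosphorylate eIF2 under stress had few counts. EIF2AK1 (heme-regulated) and EIF2AK2 (PKR, activated by double-stranded RNA) had between 4 and 24 counts and were not called. EIF2AK3 (PERK) had at most 2 counts and EIF2AK4 (GCN2) at most 10, too few for the test.

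The eIF3 complex, a scaffold on the small subunit, had 12 of its 14 genes tested and 1 called. EIF3E encodes subunit e on chromosome 8. Its level was 1904, 1952, 1924 and 1856 CPM after shSCR and 2099, 2211, 2320 and 2158 CPM after shPTBP1, without overlap. The log2 fold change was 0.20 ± 0.050 (SE, n = 4 and 4, edgeR adjusted p = 0.0330), the smallest of the 5. It lost the call without any 1 of 6 libraries (all but shPTBP1 replicate 1 and shSCR replicate 2), with an adjusted p of up to 0.121 without shPTBP1 replicate 3. The call was also lost with the replicate number as a block (0.0664) and with limma-trend on CPM without TMM (0.0511). EIF3D, the cap-binding subunit d (chr22:36510855-36529184), stood at 704, 744, 676 and 699 CPM after shSCR and 679, 638, 637 and 617 CPM after shPTBP1. These groups overlapped at 1 library each, and the log2 fold change of -0.13 ± 0.057 did not pass the correction (edgeR adjusted p = 0.216). EIF3I, subunit i, did not overlap between groups, at 44.1 to 54.4 CPM after shPTBP1 and 38.2 to 43.6 after shSCR, and was not called (0.21 ± 0.114, adjusted p = 0.344). EIF3H, subunit h, had a log2 fold change of 0.0033 ± 0.052. EIF3C and EIF3CL are near-identical copies with few counts, and reads between them cannot be assigned with certainty.

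**Figure D2:**
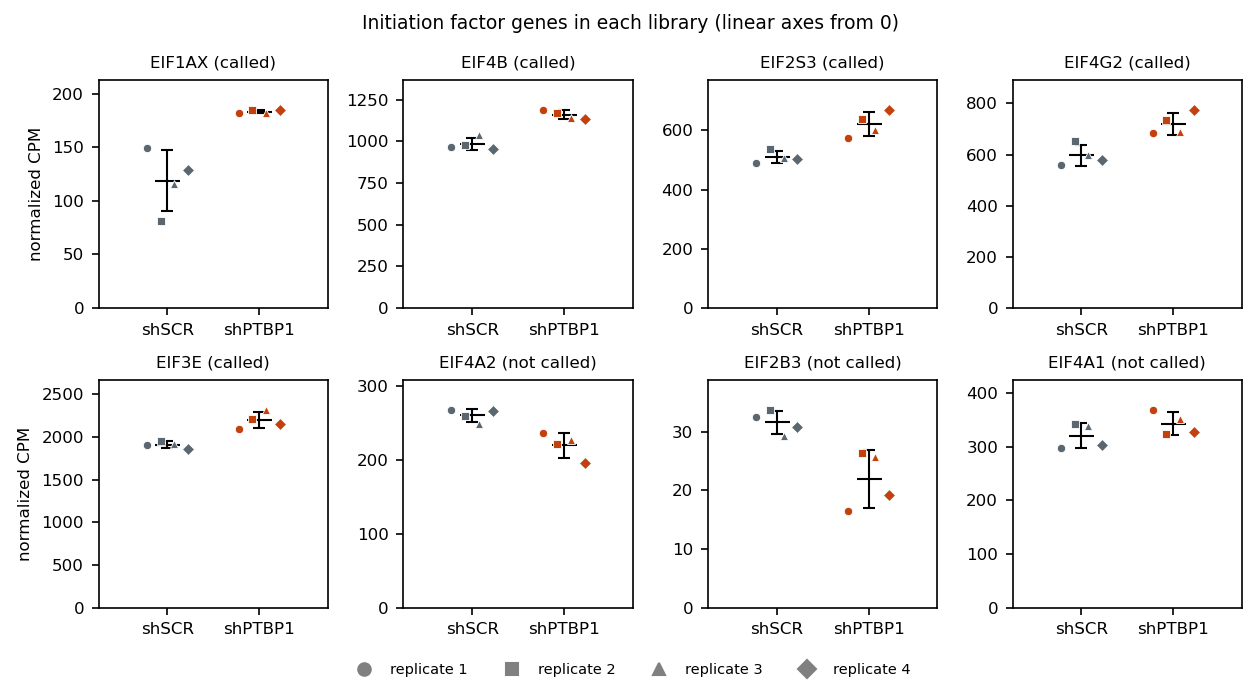
Normalized CPM (linear axes from 0) of 8 initiation factor genes in the 4 shSCR and 4 shPTBP1 libraries (points, marker shape gives the replicate number; black bars: mean and SD). EIF1AX, EIF4B, EIF2S3, EIF4G2 and EIF3E lie higher after shPTBP1 in each library, EIF4A2 and EIF2B3 lie lower without passing the test, and EIF4A1 overlaps.

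The eIF4F group held 2 of the called genes among 8 tested. EIF4B, the cofactor that stimulates the helicase eIF4A (chr12:53006282-53042215), stood at 966, 977, 1035 and 956 CPM after shSCR and at 1189, 1172, 1136 and 1135 CPM after shPTBP1. The rise was 0.24 ± 0.052 on the log2 scale (SE, n = 4 and 4, edgeR adjusted p = 0.0193), and the call was lost (adjusted p from 0.0512 to 0.0621) without shPTBP1 replicate 2 or 3 or shSCR replicate 1 or 4. EIF4G2 (chr11:10797050-10808940), an eIF4G relative that lacks the site for eIF4E and works in cap-independent initiation, stood at 559, 652, 598 and 577 CPM after shSCR and 684, 734, 687 and 775 CPM after shPTBP1. The groups did not overlap (0.27 ± 0.066, edgeR adjusted p = 0.0308), and EIF4G2 kept the call only without shPTBP1 replicate 1 or shSCR replicate 2 among the libraries left out. Its adjusted p reached 0.10 without shPTBP1 replicate 4, and limma-trend, on CPM without TMM, gave 0.0572.

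EIF4A2 stood lower after shPTBP1. Its level was 268, 260, 248 and 266 CPM after shSCR and 236, 221, 226 and 197 CPM after shPTBP1. Each shPTBP1 library was below each shSCR library, and the log2 fold change was -0.24 ± 0.071 (SE, n = 4 and 4), but the edgeR adjusted p over all genes was 0.0672. It was called lower when genes with a mean under 50 counts were left out (-0.26, adjusted p = 0.0280) and by limma-trend on log2(CPM + 1) (-0.28, adjusted p = 0.0482). The CPM values given to limma-trend were counts over library totals, without TMM. The end of RFC4 overlaps that of EIF4A2 on the other strand. Where the counting did not use strand, reads that lie within this overlap cannot be told apart by gene. The part of such reads in the EIF4A2 level was not tested. EIF4A1 (chr17:7572824-7579006) overlapped between groups, at 297, 342, 339 and 303 CPM after shSCR and 369, 323, 352 and 328 CPM after shPTBP1 (0.099 ± 0.072, adjusted p = 0.504). EIF4A3 (chr17:80134369-80147151) had 11 to 26 counts per library after shSCR and 12 to 18 after shPTBP1, with overlap (-0.38 ± 0.286, adjusted p = 0.513).

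Set against each other in the same library, the paralogs gave a ratio of EIF4A1 to EIF4A2 counts of 1.11, 1.32, 1.37 and 1.14 after shSCR and of 1.56, 1.46, 1.56 and 1.67 after shPTBP1. Each shPTBP1 library was above each shSCR library. The mean log2 ratio was 0.64 ± 0.078 after shPTBP1 and 0.30 ± 0.150 after shSCR (SD, n = 4 each), and the difference of 0.34 had a p of 0.0286 in a two-sided exact permutation test, the smallest that 4 libraries against 4 can give. The ratio compares counts, which are not corrected for transcript length. With only the transcripts annotated as coding, the difference was 0.41 with an exact p of 0.0571.

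**Figure D3:**
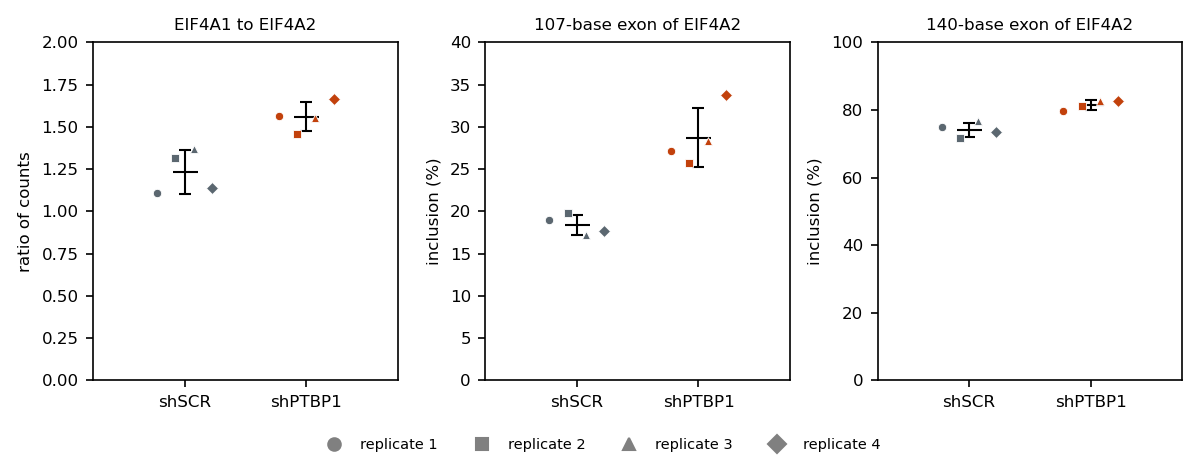
Ratio of EIF4A1 to EIF4A2 counts, and inclusion (percent of spanning counts) of the 107-base and the 140-base exon of EIF4A2, in each library (points, marker shape gives the replicate number; black bars: mean and SD; linear axes from 0). In each of the 3 panels the shPTBP1 libraries lie above the shSCR libraries, as for the 107-base exon at 25.8 to 33.8% against 17.2 to 19.8%.

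Among the eIF4G scaffolds, EIF4G2 held most counts, 92.2 to 96.4% of the sum of the 3 genes, in counts not corrected for length. EIF4G1, the main scaffold of cap-dependent initiation (chr3:184314495-184335358), stood at 41.2, 38.2, 27.3 and 36.6 CPM after shSCR and 39.9, 24.4, 38.8 and 22.4 CPM after shPTBP1 (-0.19 ± 0.202, edgeR adjusted p = 0.667). EIF4G3 (chr1:20806292-21177285) had 10, 3, 3 and 6 counts after shSCR and 2, 8, 1 and 10 after shPTBP1. The shares of all 3 overlapped between groups. EIF4G1 took 5.65 ± 1.01% after shSCR and 4.21 ± 1.41% after shPTBP1 (SD, n = 4 each, exact permutation p = 0.143), with p = 0.114 for EIF4G2 and p = 0.6 for EIF4G3 by the same exact test. The cap-binding EIF4E (-0.11 ± 0.109) and EIF4E2 (0.13 ± 0.081) and the cofactor EIF4H (-0.10 ± 0.087) were not called. Among regulators of eIF4E, the binding proteins EIF4EBP1, EIF4EBP2 and EIF4EBP3 and the transporter EIF4ENIF1 had log2 fold changes from -0.40 to 0.26, and none of the 4 was called.

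Of the genes for later steps, 3 of 4 were tested. EIF5A, whose protein carries the modified residue hypusine and helps elongation and termination (chr17:7306999-7312463), stood at 281, 390, 302 and 365 CPM after shSCR and 254, 292, 280 and 298 CPM after shPTBP1. The groups overlapped, and the log2 fold change of -0.25 ± 0.0998 did not pass the correction (edgeR adjusted p = 0.184). EIF5A2 (0.021 ± 0.186) and EIF6 (-0.11 ± 0.060), which keeps the large subunit from joining too early, were not called. EIF5AL1, a near-identical copy of EIF5A, had at most 1 count.

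Among the other genes of translation listed for comparison, the elongation list (genes with EEF symbols) had 7 of 8 genes tested, with 2 higher and 0 lower. Of all genes tested, 2.36% were higher and 3.19% lower. EEF1E1, a scaffold of the aminoacyl-tRNA synthetase complex, rose from 111 ± 2.20 to 150 ± 9.33 CPM (SD, n = 4 each, edgeR adjusted p = 0.00510), and EEF1G, a subunit of the elongation factor eEF1B, from 135 ± 5.14 to 171 ± 5.82 CPM (adjusted p = 0.0129). For termination and recycling, 4 of 4 genes were tested and none was called. Of 26 partners and regulators of initiation, 19 were tested, with 1 higher and 1 lower. PABPC1, the poly(A)-binding protein that contacts eIF4G, rose from 1509 ± 116 to 1776 ± 85.4 CPM (adjusted p = 0.0475). PAIP1, which bridges PABPC1 and eIF3, fell from 132 ± 45.3 to 52.9 ± 19.9 CPM (-1.32 ± 0.253 on the log2 scale, adjusted p = 0.01).

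The starts of genes were read for a C followed by pyrimidines, the letters that mark 5′ terminal oligopyrimidine mRNAs of the translation machinery. The starts given by RefSeq on GRCh38.p14 are shown with 10 bases before and 20 from the start on, and with the run of C and T that begins at a C in capitals.
EIF4B, chr12:53006446-53006475: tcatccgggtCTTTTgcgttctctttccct
EIF2S3, chrX:24054946-24054975: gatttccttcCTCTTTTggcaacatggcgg
EIF4A2, chr3:186783567-186783596: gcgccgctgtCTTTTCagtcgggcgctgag
EIF1AX, chrX:20141819-20141848: gagtcgcggcgccatttgctgccgccgagc
A run of at least 5 such letters stood at 16% of the 50 starts of members tested, at 5.95% of the starts of the genes tested and at 4.07% of 35116 starts in all. EIF4B and EIF2S3 of the called genes had one, as did EIF4A2, while EIF1AX, EIF4G2 and EIF3E did not. EIF2A, EIF2D, EIF3D, EIF3K and EIF3M, which were tested and not called, had one too. The counts give no start site, and these letters are a description of the annotation.

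Isoform usage, the share of a gene's counts on each annotated transcript, was tested for 61 isoforms of 19 initiation factor genes. An isoform was called where its share moved by at least 10 percentage points with an adjusted p under 0.05. This held for a single one, EIF4A2-202, against 1.12% of the 5464 isoforms tested in all genes. At the adjusted p alone 3 isoforms passed (4.92%), against 1.78% of all. EIF4A2-202, the NMD-annotated transcript with the 107-base exon, held 18.8, 19.6, 17.2 and 17.4% of EIF4A2 counts after shSCR and 26.8, 25.7, 28.2 and 33.6% after shPTBP1. The groups did not overlap, and the share rose by 10.3 points (edgeR diffSpliceDGE, adjusted p = 0.00703). These shares rest on 64 to 103 counts of the isoform per library. Without shPTBP1 replicate 4, the highest, the change was 8.65 points and the adjusted p 0.127. Without shSCR replicate 3 it was 9.97 points, below the limit of 10, and without a filter on low counts the adjusted p was 0.133.

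EIF4A2-203, the NMD-annotated transcript without the 140-base exon, had 24.1, 27.5, 22.9 and 24.8% after shSCR and 18.8, 17.9, 16.6 and 15.96% after shPTBP1. The groups did not overlap, but the change of -7.50 points did not pass the correction (adjusted p = 0.0940). limma's diffSplice gave an adjusted p of 0.00199 for the same change. The coding transcripts overlapped between groups. EIF4A2-201 held 37.2, 36.0, 40.3 and 40.5% after shSCR and 34.3, 36.4, 39.2 and 33.2% after shPTBP1, and EIF4A2-205 held 15.2 to 19.1% and 15.1 to 18.8%.

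**Figure D4:**
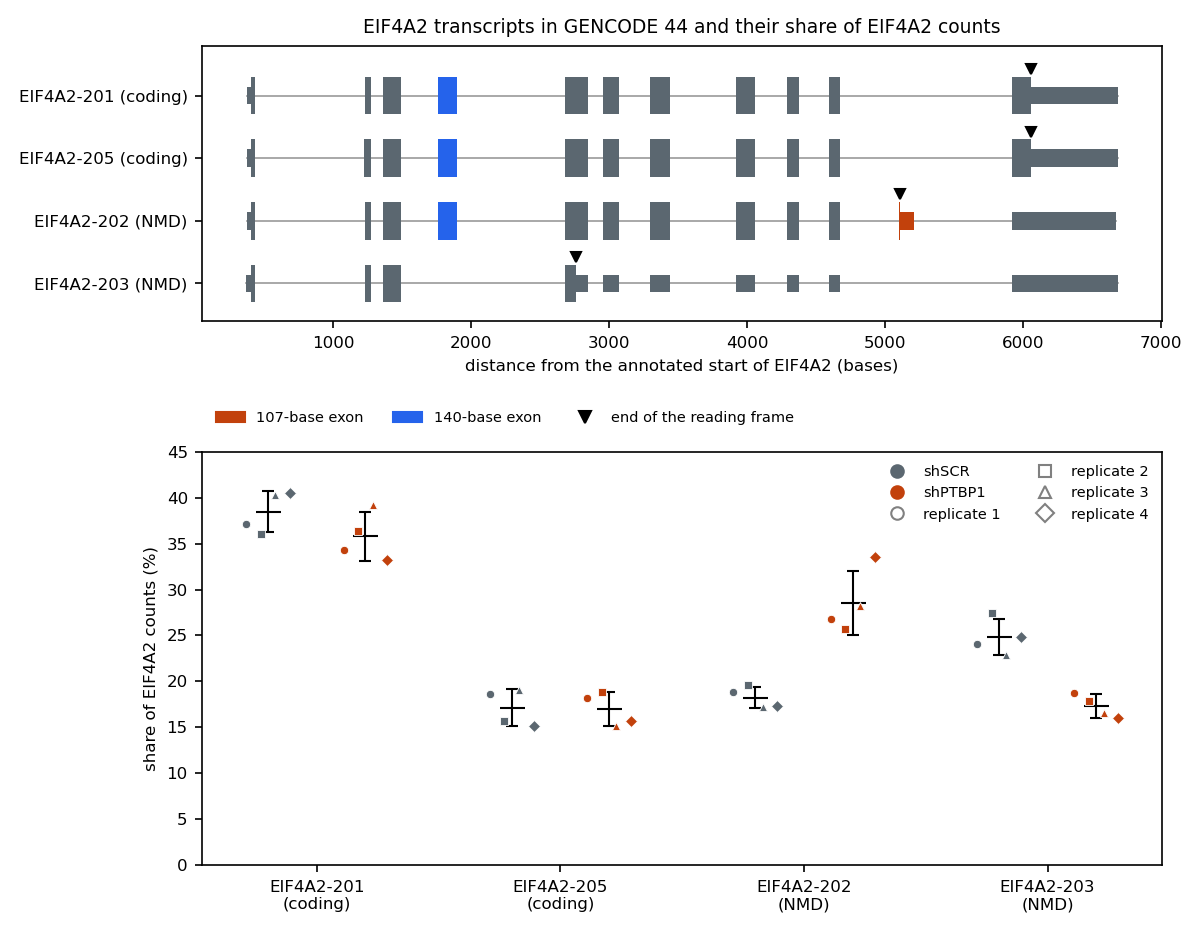
Top, the 4 main EIF4A2 transcripts on GENCODE 44 against the distance from the annotated start of the gene in bases (boxes: exons, tall where coding; triangles: end of the reading frame). Bottom, the share of EIF4A2 counts on each in percent (points: libraries, marker shape gives the replicate number; black bars: mean and SD). EIF4A2-202 with the 107-base exon lies at 25.7 to 33.6% after shPTBP1 and 17.2 to 19.6% after shSCR, and EIF4A2-203 lies lower after shPTBP1.

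The same isoform counts were read as exon use. Inclusion of both alternative exons was higher in each shPTBP1 library than in each shSCR library. Inclusion of the 107-base exon (chr3:186788310-186788416) was 18.9, 19.8, 17.2 and 17.7% after shSCR and 27.2, 25.8, 28.3 and 33.8% after shPTBP1, a difference of 10.3 points. Inclusion of the 140-base exon (chr3:186784962-186785101) was 75.1, 71.9, 76.6 and 73.4% after shSCR and 79.6, 81.1, 82.6 and 82.7% after shPTBP1, a difference of 7.26 points. Both differences had the smallest exact permutation p that the design allows, 0.0286. Adjusted over the 10 exons compared, this p was 0.143. Larger differences in these exons alone could not have passed this correction either, which therefore decides nothing about them. The percentages rest on 305 to 433 spanning counts per library. The 3-base choice at exon 2 differed by -0.18 points, with p = 0.943 by the same exact test. In EIF4A1, where 1 coding transcript (EIF4A1-201) held 91.0 to 96.5% of counts, and in EIF4G2, where EIF4G2-201 held 97.2 ± 0.598% after shPTBP1 and 97.3 ± 0.570% after shSCR (SD, n = 4 each), no isoform was called. EIF4G1, with at most 67 counts per library, and EIF4G3 were not tested for usage after the filter on low counts.

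EIF4A2-202 and EIF4A2-203 differed between groups in opposite directions, and both are annotated as NMD targets. Their class as a whole held 43.4 ± 2.98% after shSCR and 46.6 ± 2.67% after shPTBP1 (SD, n = 4 each), with overlap (exact permutation p = 0.171). In level, the coding transcripts of EIF4A2 summed to 149, 134, 147 and 148 CPM after shSCR and 124, 122, 123 and 96.7 CPM after shPTBP1, without overlap (exact permutation p = 0.0286), or 0.804 times the shSCR mean. The NMD-annotated transcripts summed to 113 ± 9.53 CPM after shSCR and 102 ± 4.72 CPM after shPTBP1 (exact permutation p = 0.0857). The deposited counts give the abundance of transcripts after any decay. Of the 21 transcript classes of 10 members tested for usage, 0 were called by edgeR or by limma, against 0.726% of the classes of all genes. At an unadjusted p under 0.05 there was 1 with edgeR and 3 with limma, and the share of all classes at that limit was not counted.

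The level of each isoform was also tested over all 10207 isoforms that passed the filter, a test chosen after the data were seen. Of 88 isoforms of members, 6 were higher and 3 lower, against 2.45% and 3.00% of all isoforms. EIF4A2-203 fell from 64.5, 71.3, 56.7 and 66.1 CPM after shSCR to 44.3, 39.6, 37.5 and 31.4 CPM after shPTBP1 (log2 fold change -0.77 ± 0.126, edgeR adjusted p = 0.00306). It was called without each library in turn, with adjusted p values up to 0.0155. EIF4A2-202 (0.38 ± 0.106, adjusted p = 0.0532) and EIF4A2-201 (-0.35 ± 0.099, adjusted p = 0.0590) did not pass. The main isoforms of 4 called genes, EIF1AX-202, EIF2S3-201, EIF4B-201 and EIF4G2-201, were called higher like their genes. After shPTBP1 they held a mean of 100% (EIF1AX-202, EIF2S3-201), 97.2% (EIF4G2-201) and 89.9% (EIF4B-201) of their genes' counts. These 4 of the 6 higher isoforms thus repeat the gene test on much the same counts. Each of them lost the call without at least 2 of the 8 libraries in turn. EIF4B-201 also lost it without a filter on low counts (adjusted p = 0.0649).

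EIF5A-204, a coding transcript, had 18, 34, 23 and 23 counts after shSCR and 3, 7, 14 and 13 after shPTBP1 (-1.38 ± 0.356, edgeR adjusted p = 0.0385). Its share of EIF5A counts was 3.94 to 5.55% after shSCR and 0.748 to 3.29% after shPTBP1, and it lost the call without 6 of the 8 libraries, with an adjusted p of up to 0.120. EIF2B3-203, the main EIF2B3 isoform, had 33 to 37 counts after shSCR and 13 to 26 after shPTBP1 (-0.82 ± 0.220, adjusted p = 0.0461), and it kept the call only without shPTBP1 replicate 3 among the libraries left out. DESeq2 gave it an adjusted p of 0.0609.

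In EIF3E the 2 isoforms that passed the adjusted p alone, EIF3E-219 and EIF3E-234, are coding transcripts. Like EIF3E-211, they end inside the last exon of EIF3E-234, at positions that differ. EIF3E-219 had 0, 10, 9 and 14 counts after shSCR and 29, 28, 20 and 22 after shPTBP1, a change of 0.45 points of the EIF3E counts (diffSpliceDGE, adjusted p = 0.00197). Without shSCR replicate 1, the library at 0, its adjusted p was 0.167. EIF3E-234 had 11, 13, 8 and 7 counts after shSCR and 36, 23, 22 and 22 after shPTBP1 (0.44 points, adjusted p = 0.00764), and its adjusted p was 0.20 without shPTBP1 replicate 1 and 0.0788 without shSCR replicate 4. Without a filter on low counts neither passed (0.0512 and 0.136). Together the 3 transcripts that end in this exon had 13, 25, 23 and 28 counts after shSCR and 69, 53, 45 and 51 after shPTBP1. That is 0.750 ± 0.233% and 1.61 ± 0.337% of EIF3E counts (SD, n = 4 each). As a level, EIF3E-219 did not pass (1.58 ± 0.443, edgeR adjusted p = 0.0579). EIF3E-234 was called higher (1.40 ± 0.262, edgeR adjusted p = 0.00678), also without each library in turn. EIF3E-210, another minor coding isoform, was called higher with all libraries (0.92 ± 0.234, edgeR adjusted p = 0.0364). It kept the call only without shPTBP1 replicate 1 among the libraries left out.

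Most EIF3E counts lay on EIF3E-225, at 92.8 to 94.0% after shSCR and 91.4 to 92.5% after shPTBP1. GENCODE annotates it as an NMD target. Among internal exons it differs from the canonical coding transcript EIF3E-201 in 1, which is 41 bases long in place of 43, and EIF3E-201 held 1.85 ± 0.259% and 1.94 ± 0.187% (SD, n = 4 each). Whether single reads resolve these 2 bases was not tested, so that the split of EIF3E between coding and NMD classes is uncertain while its total is not affected.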

How the data were processed

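Total RNA of 8 MOLM-13 libraries was read as nanopore cDNA (PromethION). The authors aligned the reads to hg38 with minimap2, kept reads with a mapping quality above 50 and counted annotated transcripts with StringTie. Their versions, the annotation and the use of strand are not given in the sources used here. The deposited counts are whole numbers without normalization. The deposited table named TPM holds CPM values (count over library total, checked to within 1e-06), which the authors did not correct for length.

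By identifier, 252562 of 254070 transcripts matched GENCODE 44 and were summed per gene. The 1508 others were left out and held at most 0.115% of a library. No column lacked a sample. Genes were filtered (filterByExpr, minimum count 10), scaled by TMM and tested with edgeR 4.0.16 (quasi-likelihood, Benjamini-Hochberg over all genes), isoforms and classes with its diffSpliceDGE. Single values were compared by two-sided exact permutation tests. The floor for a count of 0 was 3 counts and covers counting error only. The tests were tried on simulated counts. Alternatives were DESeq2 1.42.0 and limma 3.58.1, other filters, the replicate number as a block, and leaving out each library. For limma-trend, CPM over library totals without TMM were used.

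Values per library were given for called genes, those with an unadjusted p under 0.05, EIF4A1 to EIF4A3 and EIF4G1 to EIF4G3, and for isoforms called, with an adjusted p under 0.05, or with at least 5% of EIF4A or EIF4G counts, of which the main ones are printed. Called genes of the lists were named. One marker list is not reported here. EIF3I, EIF3H, EIF3E-211 and EIF3E-225 were named after their values were seen. The members and lists were chosen with earlier results of these data known.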

Additional observations from a re-analysis of the deposited data

Results flagged for a closer look

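EIF3E-234 took 1.08% of EIF3E counts in shPTBP1 replicate 1, apart from the other 3 shPTBP1 libraries at 0.624 to 0.687%. Its gap to the nearest of them was 0.863 of the range of the group, above Dixon's 95% critical value for 4 samples. Such gaps were looked for in 42 groups of 4 libraries, and chance exceeds the limit in about 1 of 20 groups. This was the 1 group found.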

How the results depend on the processing

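The number of initiation factor genes called, 5, was 5 with DESeq2, with DESeq2's size factors in edgeR and without a filter, the same 5 genes each time, 6 with a mean of at least 50 counts, 4 with limma-trend and 4 with the replicate block. It ranged from 0 to 5 when each library was left out: 0 without shPTBP1 replicate 2, 1 without shPTBP1 replicate 3, shSCR replicate 1 or shSCR replicate 4, 2 without shPTBP1 replicate 4, 3 without shSCR replicate 3, and 5 in the other cases. Genes called lower numbered 1 (EIF4A2) with a mean of at least 50 counts and 1 with limma-trend, and 0 without each library in turn. Isoforms called for usage ranged from 0 to 1 over libraries left out and were 0 without a filter on low counts. Isoforms called for level, 9, ranged from 3 to 8 over libraries left out, were 11 without a filter and 10 with DESeq2, and were 7 with the replicate block, without EIF2B3-203 (adjusted p = 0.0790) and EIF4G2-201 (0.0563). Classes called were 0 throughout.

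With coding transcripts alone the difference of the log2 EIF4A1 to EIF4A2 ratio was 0.4055 (exact p = 0.0571), and over libraries left out it was 0.2961 to 0.3965. With 7 libraries the smallest exact p is 0.0571, so these give values without a call. The differences for EIF4G1 (-1.869 to -0.9652 points), EIF4G2 (1.027 to 2.069) and EIF4G3 (-0.2388 to 0.03218) were not called in any case. Inclusion differed by 8.66 to 11.33 points for the 107-base exon and by 6.474 to 8.061 for the 140-base exon. The replicate numbers were not treated as pairing, since libraries of the same number had correlations of -0.0328 to 0.00889 after removal of group means. With the paired differences as replicate block the difference of the log2 ratio was 0.3446, where the smallest exact p is 0.125. Leaving out a library also lowers the number of libraries, and the cause of the lost calls was not tested.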
